A study of Mus musculus with 12 samples.

Results

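The genes for 8 enzymes of tryptophan, arginine, pterin and itaconate metabolism, Ido1, Kynu, Wars, Gch1, Nos2, Ass1, Arg2 and Acod1, were followed in cultured mouse oligodendrocyte precursor cells (OPCs). They were taken by name as effectors that macrophages are known to raise under IFN-γ, and made up 8 of the 55536 genes in the tables. In IFN-γ-treated OPCs, 1 of the 4 members with enough reads to be tested rose: Wars, the cytosolic tryptophanyl-tRNA synthetase, went up 2.20-fold. Ido1, below the count filter, also separated the groups, with 0 to 1 read in Ctr and 2 to 6 reads in IFN-γ libraries. Such an upward separation was seen in 5.67% of the 33403 genes with a read. With no filter, Ido1 had an adjusted p of 0.0367 by DESeq2 and 0.0755 by edgeR, and the first rose to 0.146 without Ctr replicate 2. A large part of the added Wars counts was assigned to Wars-205, a transcript with a downstream first exon that was assigned 0 reads in every untreated library. Wars-204, which shares that first exon, had 139 to 166 normalized counts in Ctr libraries. The 7 members other than Wars were low in all groups, with means of at most 0.306 TPM (a length-corrected level on which each library has the same total).

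OPCs are the dividing cells of the oligodendrocyte lineage. The cultures were started from the brains of P4 to P6 pups, which were pooled, with OPCs selected by a Sox10-driven GFP reporter or by CD140a beads, and which of these served each culture is not stated. The reporter marks the whole lineage and not OPCs alone. There were 3 groups of 4 cultures from different litters, all in medium with PDGFaa and bFGF. Ctr-OPCs received no addition, Dexa-treated OPCs dexamethasone (a synthetic glucocorticoid) at 1 µM, and IFN-γ-treated OPCs the cytokine at 100 ng/ml, in both cases for 48 h. The p-values below measure the spread between these cultures. A label gives EAE as the mouse model, although no immunization is described for these pups. Total RNA was sequenced, with 19209063 to 52074652 reads assigned to genes in the 11 libraries with a full table. The table of Dexa replicate 3 was cut short, so this library entered no fit, and its values are given only for the members it lists whole (Wars, Gch1, Nos2, Arg2 and Acod1).

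In macrophages, IFN-γ acts on several small-molecule pathways. Ido1 opens the tryptophan ring as the first step to kynurenine, and Kynu cleaves kynurenine further down, while Wars charges tRNA with the same amino acid. Gch1 makes the first committed step to tetrahydrobiopterin, a pterin cofactor that nitric oxide synthases need. Nos2, the inducible nitric oxide synthase, turns arginine into nitric oxide and citrulline. Ass1 starts the return of citrulline to arginine, Arg2 is the mitochondrial arginase that splits arginine to ornithine and urea, and Acod1 (Irg1) makes itaconate from a tricarboxylic acid cycle intermediate.

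On the GRCm38 build the members lie at chr8:24584136-24597009 (Ido1, ENSMUSG00000031551), chr2:43555329-43682715 (Kynu, ENSMUSG00000026866) and chr12:108860030-108894174 (Wars, ENSMUSG00000021266). Gch1 (ENSMUSG00000037580) lies at chr14:47153895-47189413, Nos2 (ENSMUSG00000020826) at chr11:78920787-78960254 and Ass1 (ENSMUSG00000076441) at chr2:31470207-31520672. Arg2 (ENSMUSG00000021125) lies at chr12:79130777-79156301 and Acod1 (ENSMUSG00000022126) at chr14:103046977-103056573. All 8 are protein-coding. The end of Arg2 shares 285 bases with Vti1b on the opposite strand.

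All 14 OPC markers examined were expressed, with a summed level of 1050 to 2426 TPM in Ctr-OPCs and 869.8 to 1878 TPM in IFN-γ-treated OPCs. The mean TPM was lower in the IFN-γ than in the Ctr group for 11 of the 14 and higher for 3. Of the 14, 1 was called (C1ql1, at a mean of 21.5 TPM in Ctr and 5.06 TPM in IFN-γ libraries). Of 17 microglia and macrophage markers, 4 passed the filter on low counts, and the summed level of all 17 was 0.956 to 2.30 TPM in Ctr, 0.976 to 1.95 TPM in Dexa and 1.29 to 2.75 TPM in IFN-γ libraries. Astrocyte markers summed to 149 to 317 TPM in Ctr and 269 to 435 TPM in IFN-γ libraries, with 2 of the 8 called between them (Aldoc, and Gfap at a mean of 0.154 TPM in Ctr, 0.567 TPM in Dexa and 2.5 TPM in IFN-γ libraries). The mean TPM was higher in the IFN-γ than in the Ctr group for 5 of the 8 astrocyte markers and lower for 3 (S100b, Aqp4 and Gja1). The part of such cells in the values of the members was not tested. Neuronal markers stayed at or under 7.46 TPM, endothelial and mural ones at or under 1.88 TPM and T and NK cell ones at or under 0.345 TPM, with Ifng itself at 0 reads in the 11 full libraries. As a check of the treatment, Irf1, a transcription factor known to be induced by IFN-γ, stood at 364 ± 31.9 normalized counts in Ctr and 23607 ± 983 in IFN-γ libraries (SD, n = 4). In these bulk cultures, fewer cells of a type and less RNA per cell cannot be told apart.

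The sequences that matter here belong to Wars, where the assigned transcript changed with treatment. Wars is read from the minus strand of chromosome 12. Its annotated transcript Wars-201 starts with an exon of 106 bases at chr12:108894069-108894174, while Wars-205 starts 976 bases further downstream with an exon of 39 bases at chr12:108893160-108893198. Wars-204 uses the same downstream exon but stops 1 base short of that start, with 38 bases. All of these first exons are noncoding, and they join the same second exon at chr12:108888376-108888548, which holds the start codon. The coding sequence therefore opens alike in the 3 transcripts, printed here from the GENCODE M21 transcripts, 5′ to 3′, at chr12:108888376-108888486 on the minus strand, with the start codon in capitals, to show that the choice of first exon leaves the coding start as it was.
shared coding start: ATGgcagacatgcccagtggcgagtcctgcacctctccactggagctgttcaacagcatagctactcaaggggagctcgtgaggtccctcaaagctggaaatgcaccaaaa
Wars-201 and Wars-205 have an identical coding sequence of 1425 bases (475 codons before the stop). Wars-204 repeats those 1425 bases and then goes on for 18 more in a separate last exon. Both coding ends are shown from the same base, without the stop codon. The capitals mark the bases that are coding only in Wars-204, at chr12:108860315-108860332. In Wars-201 and Wars-205 these positions lie in the noncoding end of the transcript.
end of Wars-201 and Wars-205: acgccccggcagctgtccttccacttccag
end of Wars-204: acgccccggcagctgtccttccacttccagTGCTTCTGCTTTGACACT

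**Figure D1:**
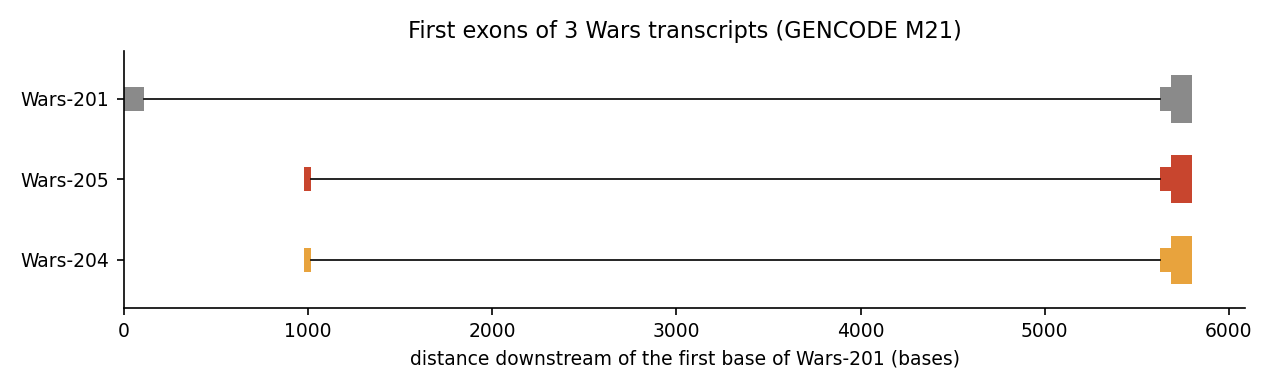
Map of the 5′ end of 3 annotated Wars transcripts, drawn to scale in the direction of transcription, with the distance from the first base of Wars-201 in bases on the x axis; thin boxes are noncoding, tall boxes coding and lines introns. Wars-204 and Wars-205 begin at least 976 bases downstream of Wars-201 and join the same second exon.

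The first comparison asked which members respond to IFN-γ in OPCs. Of the 8, 4 had at least 10 counts in at least 4 libraries and were tested (Wars, Gch1, Ass1 and Arg2). DESeq2's Wald test (Benjamini-Hochberg adjusted, 17919 genes in all) called 1 of these 4 at an adjusted p under 0.05, against 12.8% of all genes tested and 8.02% called higher. edgeR's quasi-likelihood test called the same 1 of 4, against 8.44% of all genes.

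Wars had 3515, 3405, 3008 and 3520 normalized counts (reads divided by the size factor of the library) in Ctr replicates 1 to 4. In IFN-γ-treated OPCs it had 8610, 7459, 6830 and 6723 normalized counts. Every treated library stood above every Ctr library, a separation seen upward in 8.66% of all genes tested. The means were 3362 ± 242 and 7406 ± 866 (SD, n = 4 each), a log2 fold change of 1.14 ± 0.10 (SE) with a DESeq2 adjusted p of 7.53e-28 and an edgeR adjusted p of 1.56e-05. Within the pairs that share a replicate number the log2 ratio was 1.29, 1.13, 1.18 and 0.93, so it was higher in 4 of 4. On the TPM scale Wars went from 26.9 ± 1.55 to 68.6 ± 9.89.

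**Figure D2:**
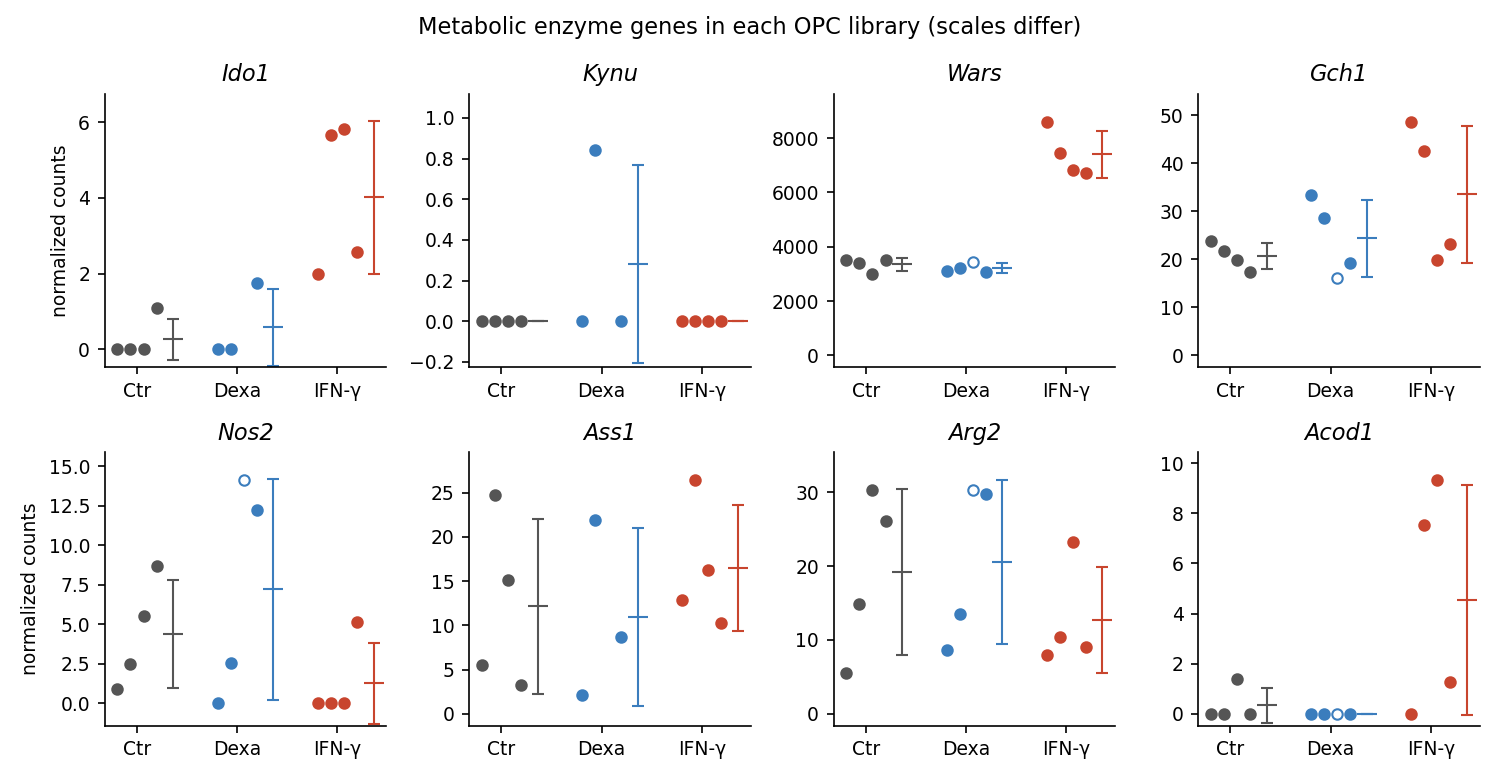
Normalized counts of the 8 genes in each library (points in order of replicate number; linear scale, different in each panel), with the group mean and SD at the right of each group; open points are Dexa replicate 3, whose table is incomplete, and SD bars can run below 0 where counts are few. Wars separates the 4 IFN-γ libraries from all others (lowest 6723 against highest 3520), whereas Ido1, Kynu, Nos2 and Acod1 reach at most 14.1 counts in any library.

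The rise was unevenly spread over the 7 annotated transcripts. Wars-205 had 0 reads in all 4 Ctr and all 4 Dexa libraries. In IFN-γ replicates 1 to 4 it was assigned 3440, 3066, 2225 and 1963 reads. The corresponding mean was 2857 ± 409 normalized counts (SD, n = 4). No fold is given against the listed 0, which rests on how reads shared with the other transcripts were assigned. Wars-205 took 39.7%, 38.8%, 38.0% and 37.5% of the Wars reads in the treated libraries, and the increase of its normalized counts equalled 70.6% of the increase of the gene.

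Wars-204, with the same downstream first exon, had 139, 166, 149 and 159 normalized counts in Ctr and 467, 702, 526 and 672 in IFN-γ libraries. Its groups did not overlap, and its mean was 3.86-fold higher. Together the 2 transcripts with the downstream first exon went from 4.57% ± 0.46 to 46.6% ± 1.46 of the Wars reads (SD, n = 4 each), and 22.5-fold in normalized counts. Wars-201, the main form in untreated cells, moved much less: 3257, 3161, 2774 and 3277 normalized counts in Ctr against 4511, 3740, 3457 and 3365 in IFN-γ libraries. This is 1.21-fold, with the lowest treated library above the highest Ctr library.

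As a share of Wars reads, Wars-201 fell from 92.7% ± 0.36 to 50.8% ± 1.09 and Wars-205 went from 0% to 38.5% ± 0.98. For the share of Wars-201 the exact two-sided permutation test over libraries gave p = 0.0286, the smallest p that 4 against 4 libraries allow. The share of Wars-205 nearly complements it and is given as a description, since this transcript was picked through the group where it is high. Salmon assigns reads shared by several transcripts by a model, and a first exon of 39 bases holds few reads of its own, so the split between Wars-201, Wars-204 and Wars-205 is an estimate and a listed 0 says only that the model assigned no reads. No start site was mapped in this experiment. Wdr25, whose annotated start lies between both Wars first exons on the opposite strand, had 227 normalized counts in Ctr and 254 in IFN-γ libraries (log2 fold change 0.15 ± 0.12, DESeq2 adjusted p = 0.507). It was looked up after the Wars values were seen.

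**Figure D3:**
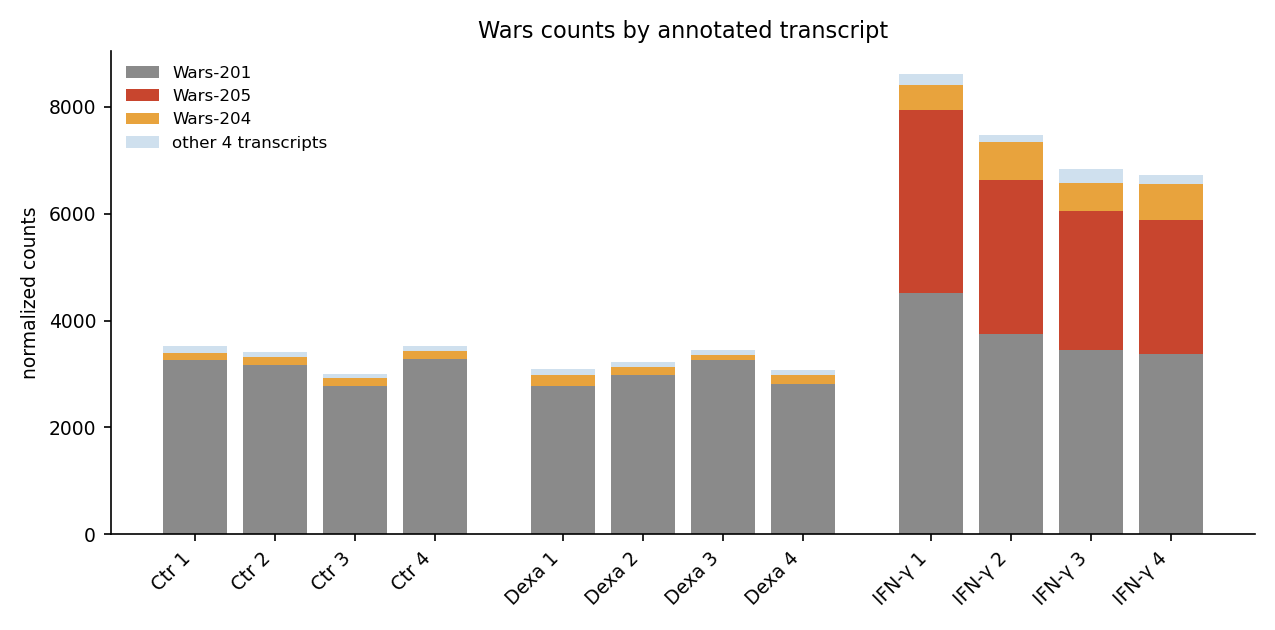
Normalized counts of Wars in each of the 12 libraries, stacked by annotated transcript (bars start at 0). The segment of Wars-205 is absent from the 8 Ctr and Dexa libraries and holds 2520 to 3420 normalized counts in the 4 IFN-γ libraries.

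Gch1 stood far lower, with 26, 35, 29 and 16 reads in Ctr-OPCs and 49, 45, 17 and 18 in IFN-γ-treated OPCs. After normalization 2 treated libraries (48.7 and 42.5) lay above the Ctr range of 17.4 to 23.9 and the other 2 (19.8 and 23.1) inside it. The log2 fold change was 0.71 ± 0.35 (95% interval 0.03 to 1.38), which did not pass the test (DESeq2 adjusted p = 0.197, edgeR 0.231). Under the replicate block, edgeR gave an adjusted p of 0.0496, where 31.3% of all genes passed, and DESeq2 gave 0.156. Without IFN-γ replicate 1 the estimate was 0.48 (adjusted p = 0.53).

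The 2 arginine enzymes that could be tested varied widely between libraries of 1 group. Ass1 had 5.51, 24.8, 15.2 and 3.26 normalized counts in Ctr and 12.9, 26.4, 16.3 and 10.3 in IFN-γ libraries, overlapping ranges with replicate 2 the highest in both. Its log2 fold change was 0.42 ± 0.73 (95% interval -1.02 to 1.85, DESeq2 adjusted p = 0.824). Arg2 had 5.51, 14.9, 30.3 and 26.1 normalized counts in Ctr and 7.95, 10.4, 23.3 and 8.99 in IFN-γ libraries, with a log2 fold change of -0.61 ± 0.60 (95% interval -1.79 to 0.58, DESeq2 adjusted p = 0.635). Within same-numbered pairs Ass1 was higher in 4 of 4 (log2 ratios of 1.1, 0.09, 0.10 and 1.40) and Arg2 in 1 of 4. With the replicate block the log2 fold changes were 0.64 ± 0.53 for Ass1 and -0.51 ± 0.46 for Arg2, and neither passed (DESeq2 adjusted p of 0.416 and 0.472).

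The remaining 4 members had too few reads for the filter. Ido1 had 0, 0, 0 and 1 read in Ctr replicates 1 to 4 and 2, 6, 5 and 2 reads in IFN-γ replicates 1 to 4, so the groups did not overlap, at the scale of single reads, a separation seen upward in 5.67% of the 33403 genes with a read. As CPM (summed reads over summed library size) this was 0.00599 in Ctr (95% Poisson interval 0.000152 to 0.0334) and 0.119 in IFN-γ-treated OPCs (0.0667 to 0.197). With no filter, DESeq2 gave a log2 fold change of 4.04 ± 1.38 and an adjusted p of 0.0367, where 6.88% of 33403 genes were called, and edgeR gave an adjusted p of 0.0755, with 4.17% called. The DESeq2 call was lost without any 1 of Ctr replicates 1, 2 or 3 or IFN-γ replicate 4 (adjusted p up to 0.146), and no adjusted p was given without IFN-γ replicate 2 or 3. The treated group averaged 0.0602 TPM for Ido1, against 68.6 TPM for Wars.

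Acod1 had 0, 0, 2 and 0 reads in Ctr and 0, 8, 8 and 1 reads in IFN-γ libraries. Its groups overlapped, with IFN-γ replicate 1 at 0 (DESeq2 without filter, adjusted p = 0.356). Nos2 went the other way in the mean, with 1, 4, 8 and 8 reads in Ctr and 0, 0, 0 and 4 in IFN-γ libraries, and its groups overlapped too (adjusted p = 0.582), while it was lower in 4 of 4 same-numbered pairs. Kynu had 0 reads in all 8 of these libraries, where a floor of 3 reads per group stands at 0.018 CPM in Ctr and 0.0238 CPM in IFN-γ, and the upper ends of the 95% Poisson interval at 0.0221 and 0.0293 CPM. These intervals and limits cover counting error only, since copies made by PCR were not told apart. The summed microglia and macrophage markers had overlapping ranges in the groups (0.956 to 2.30 TPM in Ctr and 1.29 to 2.75 TPM in IFN-γ libraries), and 8 of the 17 had at most 3 reads in every IFN-γ library. The mean TPM was higher in the IFN-γ than in the Ctr group for 14 of the 17 and lower for 3 (Trem2, Tyrobp and C1qc), with 0 of the 17 called. On the TPM scale the median log2 ratio of IFN-γ over Ctr was itself 0.166 for all genes tested, against -0.016 in normalized counts. Summed over the 4 libraries, reads rose from Ctr to IFN-γ for C1qa (3 to 10) and C1qb (1 to 9). They also rose for Aif1 (3 to 7), Cx3cr1 (1 to 5), Mrc1 (3 to 5), Trem2 (3 to 4) and Adgre1 (17 to 19). They fell for Cd68 (219 to 144), P2ry12 (91 to 81), Lyz2 (75 to 54), Csf1r (38 to 31) and Tmem119 (17 to 13). They also fell for Ptprc (12 to 10), Itgam (7 to 6), C1qc (5 to 3), Fcer1g (4 to 3) and Tyrobp (2 to 0). These sums were not corrected for depth. Ctr libraries held 30945962 to 52074652 reads assigned to genes, and IFN-γ libraries 26522547 to 35260962. The part of such cells in the reads of Ido1 and Acod1 was not tested.

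No member was called in Dexa-treated against Ctr-OPCs. DESeq2 and edgeR called 0 of the 4 tested genes in Dexa against Ctr, 0 of them with an unadjusted p under 0.05 by either tool, against 0.547% of all genes called by DESeq2 and 0.123% by edgeR. Wars had 3093, 3220, 3458 and 3073 normalized counts in Dexa replicates 1 to 4 (all inside the Ctr range). Its log2 fold change over the 3 full libraries was -0.10 ± 0.11 (95% interval -0.32 to 0.11), so an increase of the size seen under IFN-γ lies outside the interval. The estimates were 0.41 ± 0.38 for Gch1, -0.15 ± 0.81 for Ass1 and -0.19 ± 0.65 for Arg2, all with an adjusted p of 1. Nos2 had 0, 3, 7 and 7 reads, Ido1 1 read and Kynu 1 read in the 3 full libraries, and Acod1 0 reads in all 4.

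IFN-γ-treated against Dexa-treated OPCs gave Wars a log2 fold change of 1.24 ± 0.11 (DESeq2 adjusted p = 4.67e-28), and no other tested member was called, where DESeq2 called 13.1% of all genes and edgeR 8.77%. This comparison shares the treated libraries with the first and is not independent of it. Here the estimates were 0.30 ± 0.38 for Gch1, 0.57 ± 0.81 for Ass1 and -0.41 ± 0.66 for Arg2.

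In order of level, Wars came first in every group, with a range that did not overlap that of the next gene. In Ctr-OPCs it was followed by Arg2 (0.295 ± 0.176 TPM), Ass1 (0.167 ± 0.140 TPM) and Gch1 (0.144 ± 0.022 TPM), whose ranges overlapped, and then by Nos2 (0.0237 ± 0.0184 TPM). Ido1, Acod1 and Kynu were each at 0 in at least 3 of the 4 Ctr libraries. In IFN-γ-treated OPCs the order after Wars was Gch1 (0.274 ± 0.131 TPM), Ass1 (0.238 ± 0.125 TPM) and Arg2 (0.209 ± 0.095 TPM), again with overlapping ranges, and Ido1, Acod1, Nos2 and Kynu lay at or below 0.095 TPM in each library. In the 3 full Dexa libraries Arg2 (0.262 ± 0.170 TPM), Gch1 (0.191 ± 0.048 TPM), Ass1 (0.176 ± 0.13 TPM) and Nos2 (0.0478 ± 0.0415 TPM) followed Wars, each overlapping the next.

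Wars was then set beside the other cytosolic aminoacyl-tRNA synthetases, the enzymes that load each tRNA with its amino acid. In IFN-γ-treated OPCs DESeq2 called 7 of the 20 higher and 0 lower, where 8.02% of all genes were called higher. The median log2 fold change was 0.22, against a median of -0.02 over all genes tested. Without Wars, 6 of 19 were called higher, with a median of 0.19. edgeR called 5 of the 20, where 8.44% of all genes were called in either direction. With the replicate block, DESeq2 called 13 higher, where 15.2% of all genes were called higher and 29.2% in either direction. Wars had the largest estimate, followed by Kars, the lysyl-tRNA synthetase, which rose from 5500 ± 521 to 10137 ± 710 normalized counts (log2 fold change 0.88 ± 0.10, DESeq2 adjusted p = 3.02e-17). Qars (0.51 ± 0.07), Yars (0.40 ± 0.10) and Tars (0.38 ± 0.11), for glutamine, tyrosine and threonine, rose less (DESeq2 adjusted p of 1.22e-10, 0.000474 and 0.00431). By mean TPM, Wars ranked number 14 of the 20 in Ctr-OPCs, 16 in Dexa-treated and 2 in IFN-γ-treated OPCs, behind Kars at 117 TPM. Wars2, which serves the mitochondrial tRNA, did not pass the test (log2 fold change -0.14 ± 0.19, DESeq2 adjusted p = 0.737). In Dexa-treated OPCs 0 of the 20 synthetases were called by DESeq2 or edgeR, 0 of them at an unadjusted p under 0.05.

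**Figure D4:**
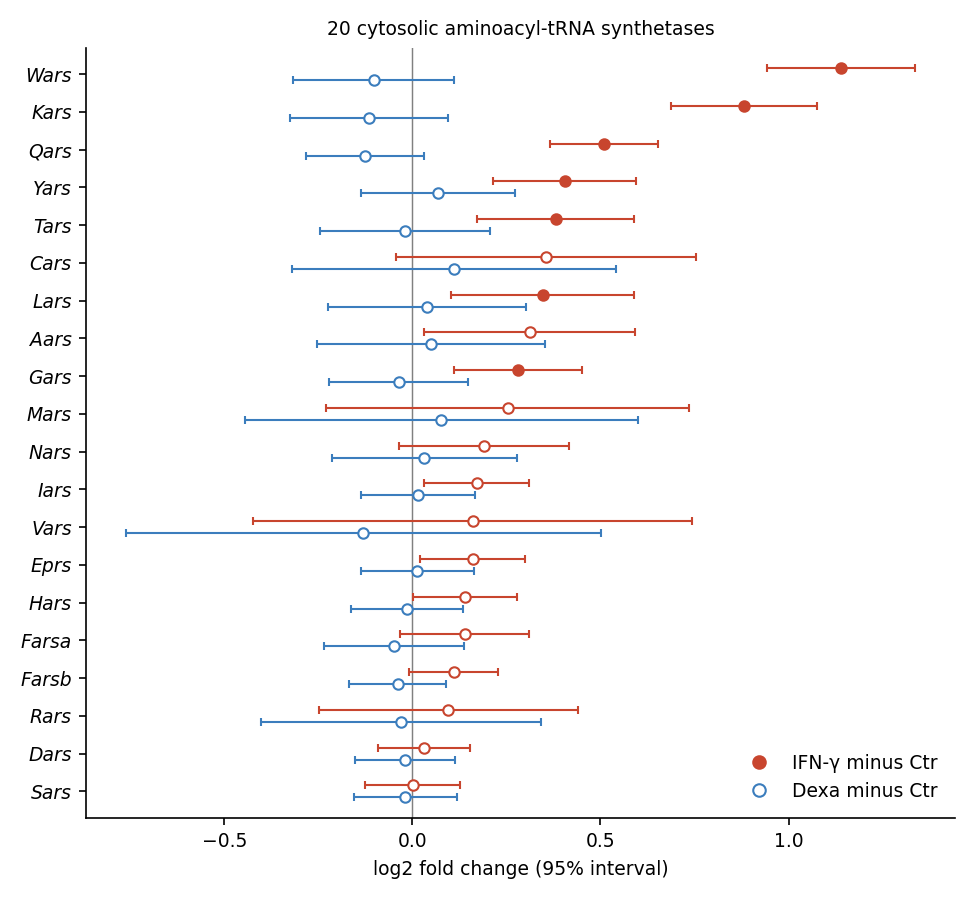
Log2 fold change of 20 cytosolic aminoacyl-tRNA synthetases with 95% intervals, IFN-γ minus Ctr in red and Dexa minus Ctr in blue; filled points have a DESeq2 adjusted p under 0.05. Wars (1.14) and Kars (0.88) stand at the top under IFN-γ, and no Dexa point is filled.

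Around Ido1 and Kynu, 7 of the 16 genes of the tryptophan and kynurenine list were expressed enough to be tested. DESeq2 called 2 higher and 1 lower in IFN-γ against Ctr, where 12.8% of all genes were called. Kyat3, an aminotransferase that can turn kynurenine into kynurenic acid, had 254, 141, 131 and 162 normalized counts in Ctr and 750, 682, 591 and 615 in IFN-γ libraries. It rose 3.85-fold (log2 fold change 1.94 ± 0.25, DESeq2 adjusted p = 1.74e-13, edgeR 0.000344). Got2, the mitochondrial aspartate aminotransferase, rose by 0.41 ± 0.09 on the log2 scale (DESeq2 adjusted p = 7.69e-05). Kyat1, another kynurenine aminotransferase of the list, fell by 0.47 ± 0.14 (DESeq2 adjusted p = 0.01), while Aadat, also listed, missed the filter. The call of Kyat1 was not made by edgeR (0.0658) and was lost without any 1 of Ctr replicates 2, 3 or 4 or IFN-γ replicates 1 or 2 (DESeq2 adjusted p up to 0.0767).

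Kmo, which hydroxylates kynurenine, missed the filter with 0, 2, 2 and 0 reads in Ctr, 3, 0, 1 and 0 in Dexa and 16, 32, 22 and 7 in IFN-γ libraries. All 4 treated libraries were above all 8 others. An upward separation of IFN-γ from Ctr libraries was seen in 5.67% of the 33403 genes with a read. Kmo overlaps Fh1 by 5255 bases on the opposite strand, a gene whose log2 fold change was 0.12 ± 0.28 (DESeq2 adjusted p = 0.879). With no filter the fitted log2 fold change was 4.74 ± 0.96 (DESeq2 adjusted p = 2.14e-05, edgeR 0.00297). In these fits DESeq2 called 6.88% of the 33403 genes and edgeR 4.17%. The other dioxygenases that open the tryptophan ring showed overlapping groups: Ido2 had 3 to 12 reads in Ctr and 6 to 12 in IFN-γ libraries, and Tdo2 had 6 to 10 and 3 to 10 reads. The marker values given for Ido1 stand beside Kmo as well, a gene that microglia are known to express, and the part of such cells in its reads was not tested.

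Around Gch1, 9 of the 16 tetrahydrobiopterin genes were tested and 0 were called in IFN-γ against Ctr by DESeq2 or edgeR, with 2 and 1 of them at an unadjusted p under 0.05. DESeq2 with the replicate block called 1 higher and 1 lower. Of all genes, DESeq2 called 12.8%, edgeR 8.44% and DESeq2 with the block 29.2%. The enzymes next to Gch1 did not pass the test: Pts and Spr, which complete the cofactor, had log2 fold changes of 0.05 ± 0.12 and -0.01 ± 0.35, Qdpr, which recycles it, had -0.02 ± 0.18, and the feedback regulator Gchfr had -0.41 ± 0.62. By level the later steps were far above the first, with Pts at 11.9 TPM, Spr at 10.3 TPM and Qdpr at 25.0 TPM in Ctr-OPCs against 0.144 TPM for Gch1. Agmo, an ether lipid monooxygenase that uses the cofactor, was called in IFN-γ against Dexa, with a log2 fold change of -1.38 ± 0.41 (DESeq2 adjusted p = 0.00963, edgeR 0.0553), a call lost without Dexa replicate 1 or 2 (up to 0.134). Against Ctr its log2 fold change was -0.77 ± 0.38 (DESeq2 adjusted p = 0.209, with the block 0.0108).

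Around Nos2, Ass1 and Arg2, 16 of the 24 arginine, nitric oxide and polyamine genes were tested, and IFN-γ raised 1 and lowered 2, where 12.8% of all genes were called. With the replicate block DESeq2 called 5 higher and 5 lower, where 29.2% of all genes were called. Sat1, which acetylates spermidine and spermine, had 397, 378, 326 and 292 normalized counts in Ctr and 776, 999, 751 and 775 in IFN-γ libraries, a rise of 2.37-fold (log2 fold change 1.24 ± 0.17, DESeq2 adjusted p = 2.88e-12). Gatm and Gamt, which make creatine from arginine and glycine, fell by 0.60 ± 0.14 and 0.85 ± 0.26 on the log2 scale (DESeq2 adjusted p of 0.000223 and 0.0109). The call of Gamt was not made by edgeR (0.0627) and was lost without any 1 of Ctr replicate 1 or IFN-γ replicates 2 or 3 (DESeq2 adjusted p up to 0.0771). Sms, spermine synthase, passed in IFN-γ against Dexa (0.49 ± 0.16, DESeq2 adjusted p = 0.0225, edgeR 0.0603), a call lost without any 1 of Dexa replicates 2 or 4 or IFN-γ replicates 1 or 2. Against Ctr it had 0.39 ± 0.15 (DESeq2 adjusted p = 0.0598, with the block 1.85e-05). Asl, which follows Ass1 and releases arginine, had a log2 fold change of 0.14 ± 0.16 (DESeq2 adjusted p = 0.69).

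Of the other nitric oxide synthases, Nos1, the neuronal form, had 3, 3, 2 and 2 reads in Ctr, 4, 1 and 2 reads in the full Dexa libraries and 133, 24, 9 and 11 reads in IFN-γ libraries. The first treated library was far above the rest, and the other 3 still exceeded all Ctr and full Dexa libraries. Of the 33403 genes with a read, 5.67% separated IFN-γ upward from Ctr libraries. With no filter the fitted log2 fold change was 4.48 ± 0.91 (DESeq2 adjusted p = 2.29e-05, edgeR 0.00811), where DESeq2 called 6.88% of all genes and edgeR 4.17%. Without IFN-γ replicate 1 the treated mean was 15.8 normalized counts in place of 44.9, against 2.04 in Ctr, and the log2 fold change was 3.0 ± 0.71 (DESeq2 adjusted p = 0.000531). No adjusted p was given for Nos1 without IFN-γ replicate 2. Nos3, the endothelial form, had 4 to 9 reads in Ctr and 1 to 9 in IFN-γ libraries, and Arg1, the cytosolic arginase, had 3 to 6 and 1 to 8 reads. The neuronal markers summed to 3.38 to 5.40 TPM in Ctr and 4.04 to 6.72 TPM in IFN-γ libraries. Of the 6, Syt1 was called, at 0.894 TPM in Ctr and 2.18 TPM in IFN-γ on average, and 4 had a lower mean in IFN-γ. Of the 8 endothelial, mural and fibroblast markers, Lum was called (0.0638 and 1.01 TPM), and 6 had a lower mean in IFN-γ. The part of other cells in the Nos1 reads was not tested.

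Around Acod1, 16 of 17 tricarboxylic acid cycle and itaconate genes were tested, all but Acod1 itself, and 0 were called in IFN-γ against Ctr by DESeq2 or edgeR, 0 of them at an unadjusted p under 0.05. Their log2 fold changes lay between -0.30 and 0.28. With the replicate block DESeq2 called 2 higher and 1 lower, against 29.2% of all genes. In the fit without the block, 12.8% of all genes were called by DESeq2. It called 8 of the 13 genes of IFN-γ signalling and upstream factors higher and 1 lower. The largest changes were those of Irf8 (log2 fold change 6.78 ± 0.13), Socs1 (6.08 ± 0.17) and Irf1 (6.01 ± 0.10). In Dexa against Ctr, DESeq2 and edgeR called 0 genes of each of the 6 lists. At an unadjusted p under 0.05, DESeq2 had 2 genes in the arginine list and 0 in the other 5, and edgeR had 2 in the arginine list, 1 each in the tryptophan and IFN-γ signalling lists and 0 in the other 3.

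**Figure D5:**
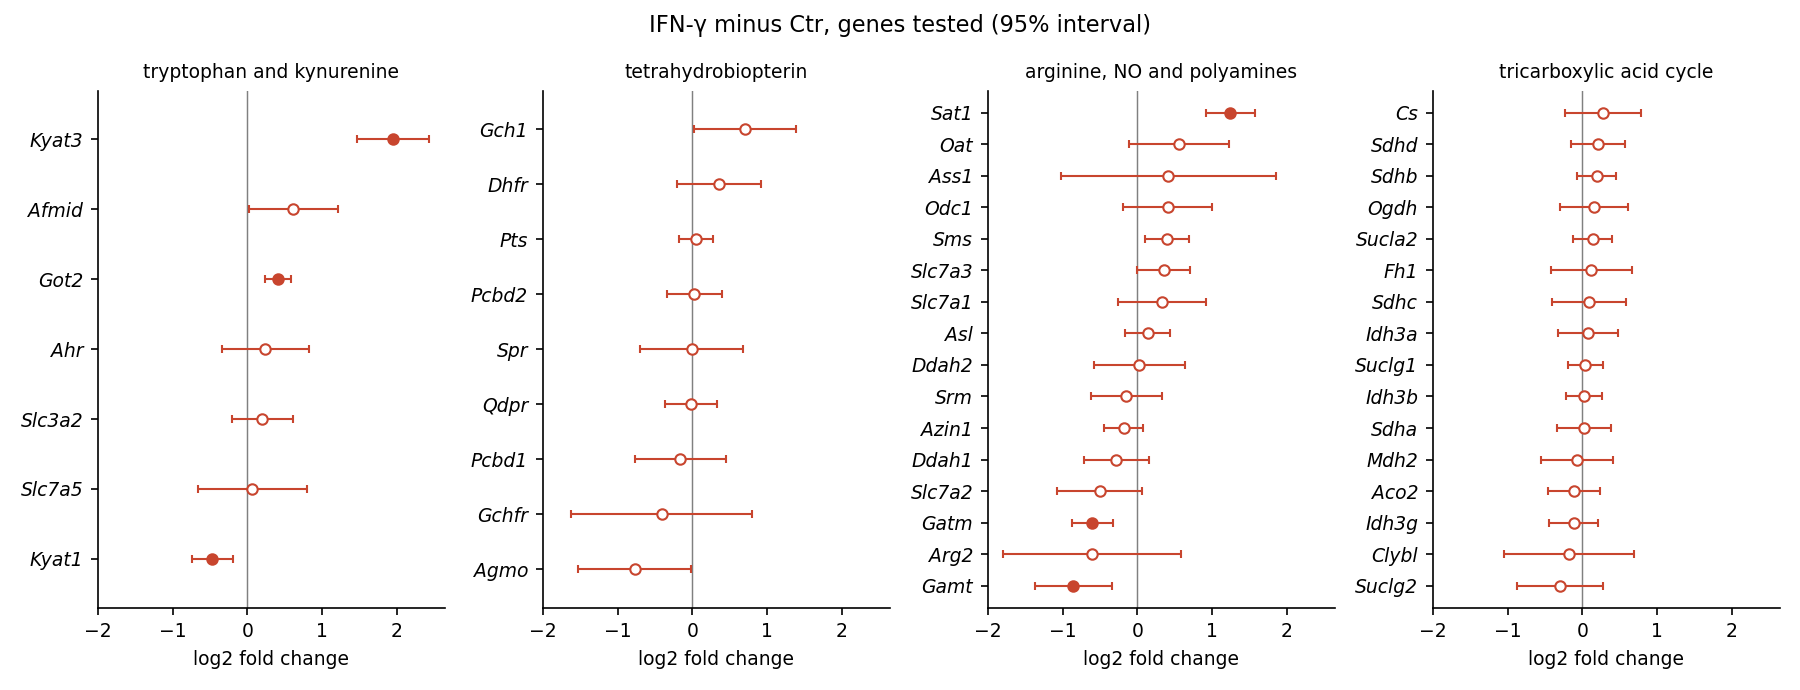
Log2 fold change, IFN-γ minus Ctr, with 95% intervals for the tested genes of 4 pathway lists; filled points have a DESeq2 adjusted p under 0.05. Kyat3, Got2, Kyat1, Sat1, Gatm and Gamt are filled, and no gene of the tetrahydrobiopterin or tricarboxylic acid cycle panel is.

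The genes whose log2 counts followed Wars most closely over the 11 full libraries were Bid (Pearson r = 0.9935), Lap3 (0.9932) and Lck (0.9923). Each of them also rose under IFN-γ, by log2 fold changes of 1.65, 2.01 and 3.30, so the points share the gap between the 4 treated libraries and the rest. Lap3 is a leucine aminopeptidase, Bid a BCL2-family protein and Lck a kinase best known from T cells. The closest to Gch1 were Gm42607 (0.943), Slc25a33 (0.922) and Cntf (0.921), to Ass1 Tm4sf1 (0.912), Gxylt2 (0.901) and Slc41a2 (0.894), and to Arg2 Nprl2 (0.962), 4430402I18Rik (0.954) and Arid3a (0.951), and none of these 9 was called in IFN-γ against Ctr by DESeq2.

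Promoter sequences from RefSeq (GRCm38.p6, 250 bases before to 50 after the start) were held for 3 of the 8 members, Ass1, Gch1 and Acod1. On either strand, 0 of the 3 had the letters TTCNNNGAA of the IFN-γ-activated site, the core letters of the interferon-stimulated response element or those of the glucocorticoid response element. Of 32851 promoters of the same length, 8.30% held the first, 3.44% the second and 0.475% the third; matches of the first 2 may share bases.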

How the data were processed

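Total RNA-seq was analysed for 12 OPC libraries in 3 groups of 4. Per the labels and methods, the authors trimmed adapters and low-quality ends, ran Salmon 0.8.2 and deposited for each transcript an estimated count and a TPM value. All deposited transcript identifiers were found in GENCODE M21 (GRCm38). The annotation used with Salmon and its strand setting are not given in the sources used here. The authors' own comparison tables (fold changes and p-values) were not used.

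Estimated counts were summed per gene over 55536 genes and rounded. TPM was summed per gene for levels. The table of Dexa replicate 3 lists 33.7% of the 141862 transcripts, so fits used the other 11 libraries, and its size factor came from the genes it lists whole. A gene was tested where 4 or more libraries held 10 or more of its counts, with DESeq2 1.42.0 (R 4.3.3; Wald test, group as the only term, Benjamini-Hochberg adjustment, threshold 0.05), where the design had foreseen all 12 libraries. Alternatives were edgeR 4.0.16, a replicate block, TMM factors, no filter, the 2 groups compared alone, each library left out (also with no filter, chosen after seeing the data, as was edgeR with no filter), and 12 libraries over the genes that the short table lists whole. Fits were tested on simulated data. Shares were compared with exact permutation tests (SciPy 1.17.1). Library sizes of 19209063 to 52074652 reads put a floor of 3 reads at 0.0576 to 0.156 CPM.

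Replicate numbers pair the libraries: deviations from the group means correlated at 0.404 to 0.722 for the same number and at -0.614 to 0.495 for different ones. The labels do not say what same-numbered cultures share. Replicates 3 and 4 share a prefix in their titles whose meaning is not stated.

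The members and the pathway and marker lists were chosen with earlier results of these data known. Besides the 8 members, the text names up to 4 called genes per list and comparison by size of change, the paralogs and neighbouring enzymes of the members, and the 3 genes most like each tested member.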

Additional observations from a re-analysis of the deposited data

Results flagged for a closer look

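Single libraries far from the rest of their group were looked for in 56 sets of 4 values. For normally distributed values, chance alone gives such a case in about 1 of 20 sets. That rate does not hold for genes near zero, since a set with a single nonzero value always meets the rule. There were 7 such cases.

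For Ido1, Ctr replicate 4 was at 0.0133 TPM and the other Ctr libraries at 0. For Acod1, Ctr replicate 3 was at 0.0111 TPM and the others at 0. Nos2 was at 0 TPM in Dexa replicate 1, where the other Dexa libraries had 0.0682 to 0.0773 TPM, and at 0.0336 TPM in IFN-γ replicate 4, where the others had 0. Ass1 stood apart in IFN-γ replicate 2, at 0.423 TPM against 0.152 to 0.198 TPM in the other 3, and replicate 2 was the highest library for Ass1 in Ctr and Dexa too. Wars-202, a transcript annotated for nonsense-mediated decay, had 11.4 normalized counts in Ctr replicate 1 and 13.0 in IFN-γ replicate 4, and 0 in the other libraries of those groups.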

How the results depend on the processing

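Wars was called in IFN-γ against Ctr under all 19 alternatives, with a log2 fold change of 1.06 to 1.19 and adjusted p-values of 2.6e-46 to 1.57e-05. Of the members it alone was called, except that edgeR with the replicate block called 2 members (Wars and Gch1) and DESeq2 with no filter called 2 (Wars and Ido1). Leaving out each library gave 1 call in IFN-γ against Ctr, 0 in Dexa against Ctr and 1 in IFN-γ against Dexa. The block changed no other call of a member.

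Over the 6 lists with the members left out, 21 of the 77 genes tested were called in IFN-γ against Ctr, 0 in Dexa against Ctr and 21 in IFN-γ against Dexa. With the replicate block these counts became 40, 1 and 40 in DESeq2, and 41 and 43 for both IFN-γ comparisons in edgeR. Without 1 library they ranged from 17 to 22 in IFN-γ against Ctr, stayed at 0 in Dexa against Ctr, and ranged from 13 (without Dexa replicate 2) to 22 in IFN-γ against Dexa. Of all genes tested, 12.8% were called in IFN-γ against Ctr and 29.2% with the DESeq2 block. The cause of these shifts was not tested.

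The log2 ratio of the Wars means was 1.35 in TPM and 1.14 in normalized counts. TPM shifted the median of all tested genes to 0.166 against -0.016, and relative to these medians the ratios were 1.19 and 1.16. With 1 library left out, the share of Wars-205 differed by 38.1 to 38.8 percentage points and that of Wars-201 by -42.4 to -41.7, the latter with an exact permutation p of 0.0571, the smallest that 4 against 3 libraries allow. Below about 10 reads a library, as for Ido1, Kynu, Nos2 and Acod1, depth limits what can be seen.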
